A study of Rattus norvegicus with 4 samples.

Results

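The livers of 2 Lewis rats were compared, each after partial hepatectomy, an operation that takes out part of the organ, and each after cells had been given into a vein. One rat had received cells labelled ASCs-miR27b and the other cells labelled ASCs-siRNC. ASCs is taken to mean adipose-derived stem cells, which the labels do not spell out, nor do they spell out siRNC. They are called the miR-27b and the siRNC liver. The study holds 4 livers in all, 1 per group, and the other two were a naive liver without surgery and a saline liver, from a hepatectomised rat given saline into a vein. All 4 are of the strain labelled LEWIS with the allotype RT1L. The sources used here do not give the age of the rats, the time from surgery to collection, or the source and number of the cells.

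Poly(A)-selected RNA was sequenced, and for each gene the log2 difference was the value of the miR-27b library minus that of the siRNC library. The values are log2 normalized reads relative to a baseline of the gene near the middle of the 4 libraries, so they compare libraries within a gene and give no level between genes. Of 31457 genes in the table, 12874 were not at 0 in every library. Of these, 9650 passed a filter on low levels and are called kept genes. Each group has 1 library, so there are no replicates to set a difference against and no test was made. Differences are described by size, with 2-fold (a log2 difference of 1) as the limit. Where the read numbers of a kept gene could be recovered from the values, an exact conditional binomial 95% interval is given, which covers counting error only and not the spread between animals. A pseudocount of 5 added to both sides took some genes under 2-fold or cut their log2 difference by more than 1.5 times. That value then stands beside the gene. Smaller cuts are mostly not shown, such as that of Per3 from -3.43 to -2.48. For the pseudocount, a gene without recovered reads was set to the lowest level its class allows. In whole liver, a different number of cells of a type and a different amount of RNA per cell cannot be told apart. The size factor of the siRNC library was 1.005 and that of the miR-27b library 0.956, so relative depth was nearly the same. Hepatocyte transcripts were at like levels in both, with albumin (Alb) 0.16 higher in the miR-27b library on the log2 scale.

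MicroRNAs are short RNAs that pair with messenger RNAs, mainly through the seed near their 5′ end, and lower the stability or translation of those messages. After partial hepatectomy the remaining liver regrows, with a phase of IL-6 and acute phase signalling, entry of hepatocytes into the cell cycle, and shifts in glucose and lipid metabolism. The sequences of the microRNA named in the label are shown because the seed defines which messages can be paired with, and miR-27a is set beside it as the other family member. They are the RefSeq mature sequences on build GRCr8, 5′ to 3′, with the seed (bases 2 to 8) in capitals. The labels do not say which arm was used. The precursor gene Mir27b was listed at 0 in all 4 libraries; a poly(A) library does not measure mature microRNAs, so the table does not check the label.
rno-miR-27b-3p: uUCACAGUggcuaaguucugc
rno-miR-27b-5p: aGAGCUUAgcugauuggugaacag
rno-miR-27a-3p: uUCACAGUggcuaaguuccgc
The locus of miR-27b lies on chromosome 17, minus strand, where the 3p arm spans 1819163 to 1819183. The 3p arms of miR-27b and miR-27a share their seed and differ at 1 of 21 bases, and of 724 mature rat microRNAs in the table no others had that seed.

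Most genes differed little between the livers. The median difference of the kept genes was 0.0031, and 77.4% lay within 0.5 of 0 on the log2 scale. At least 2-fold higher in the miR-27b liver were 296 genes (3.07%), and at least 2-fold lower were 239 (2.48%), together 535 (5.54%). Of all 9650 kept genes, 4868 lay above 0 and 4779 below. These shares are the background to the counts within lists below. The place of both libraries among all 4 is given as a description, since the genes were picked on the difference between them, which favours the ends. Over all kept genes the miR-27b library was the highest of the 4 in 25.1% and the lowest in 26.1%, and the siRNC library the highest in 21.3% and the lowest in 22%. Among the 296 higher genes, the miR-27b library was the highest of the 4 in 221 and the siRNC library the lowest in 161, and a gene can count in both. Among the 239 lower genes, the miR-27b library was the lowest of the 4 in 178 and the siRNC library the highest in 147.

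The genes furthest apart among those at higher levels were led by Adm and Lcn2 upward and by Rps2-ps6, Stac3 and Asb5 downward. Adm, which encodes the vasodilator peptide adrenomedullin, stood at -0.36 in naive, 1.23 in saline, -2.71 in siRNC and 1.93 in miR-27b liver, relative to its baseline. Thus the siRNC library was the lowest and the miR-27b library the highest, and the log2 difference was 4.65. Lcn2, the iron-siderophore binding acute phase protein lipocalin 2, had 14 reads in naive, 71 in saline, 34 in siRNC and 595 in miR-27b liver. The miR-27b library stood far above the other three, with a log2 difference of 4.20 (95% interval 3.70 to 4.75). Igfbp1, a binding protein of insulin-like growth factors, had 44.4, 173 and 61.3 reads in the naive, saline and siRNC libraries and 330 in the miR-27b library (log2 difference 2.50, 95% interval 2.11 to 2.93). Il1rn, the interleukin-1 receptor antagonist, had 40.6, 70.4, 39 and 207 reads in the same order (log2 difference 2.48, 95% interval 1.98 to 3.01). For both genes the miR-27b library was the highest of the 4.

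Lpin1, a phosphatidic acid phosphatase of triglyceride synthesis, showed another pattern. Its values were 0.00 in the naive and -0.02 in the siRNC library against 2.38 in the saline and 2.38 in the miR-27b library, so the miR-27b liver was level with saline and the siRNC liver with naive. Fkbp5, a cochaperone of the glucocorticoid receptor and one of its target genes, was split the same way, at -0.45 in naive and -0.20 in siRNC against 1.34 in saline and 1.43 in miR-27b. Slc13a5, the citrate transporter of hepatocytes, had 40, 95.8, 97.9 and 335 reads in the naive, saline, siRNC and miR-27b libraries, with the miR-27b library apart from the rest. Its log2 difference was 1.85 (95% interval 1.52 to 2.19). The other genes among the 12 highest were G6pc and Npas2, described with their pathways, and Lrrc25 (1.84, 95% interval 1.32 to 2.37), Pcolce (1.61, 95% interval 1.40 to 1.84) and Alpl (1.48, 95% interval 0.95 to 2.04).

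On the lower side, Cish, a STAT5-induced inhibitor of cytokine receptor signalling, had 6, 77, 140 and 20 reads in the naive, saline, siRNC and miR-27b libraries. The naive and miR-27b libraries were low and the siRNC library the highest, with a log2 difference of -2.74 (95% interval -3.49 to -2.05). Asb5 and Stac3, both best known from skeletal muscle, were at -2.93 (95% interval -3.49 to -2.41) and -3.07. Asb5 had 199, 85, 272 and 34 reads, with the miR-27b library lowest. Inmt, an indolethylamine methyltransferase, had 486, 65, 106 and 16 reads, with the naive library far above the rest (log2 difference -2.66, 95% interval -3.51 to -1.89). The lowest value of the 12 was that of Rps2-ps6, a ribosomal protein pseudogene (-3.14, 95% interval -4.13 to -2.28), whose reads may be shared with near-identical copies. Fahd1, Wdr89, Hacl1, Gal3st4 and Lynx1 lay between -2.06 and -1.37 (Lynx1, with a 95% interval of -1.61 to -1.14), and Col1a1 and Msmo1 are described below. Gal3st4 had naive and saline values tied at 0.00, the lowest, as for libraries floored at 1 normalized read. Its siRNC and miR-27b values, 2.45 and 1.06 on the log2 scale, then stand for few reads. Gal3st4 is thus not a gene at a higher level, though the rounding of its values placed it there.

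**Figure D1:**
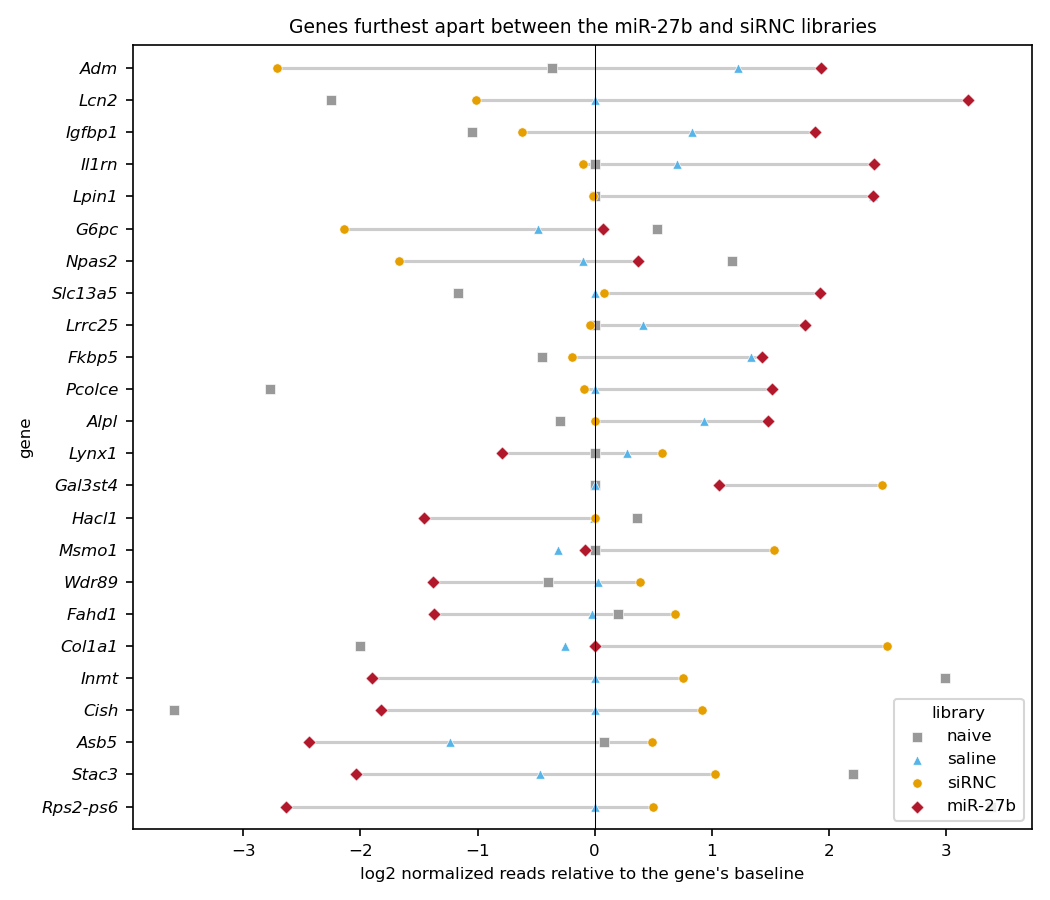
Values of the 12 highest and 12 lowest genes at higher levels, in log2 normalized reads relative to each gene's baseline, with 1 point per library and a grey line from the siRNC to the miR-27b library. Adm and Lcn2 have the widest gaps upward, at 4.65 and 4.20. Gal3st4 is drawn by its class, though its tied naive and saline values are those of libraries at the floor.

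The acute phase response, in which hepatocytes secrete defence and clotting proteins under IL-6, was higher in the miR-27b liver across nearly its whole list. Of 23 kept members, 22 lay above 0 and the median was 0.61, against 0.0031 over all kept genes; 7 reached 2-fold upward and 1 downward. The miR-27b library was the highest of the 4 in 21 of the 23, against 25.1% of all kept genes. Orm1, the carrier protein orosomucoid, stood at -2.08, -0.13, 0.00 and 1.16 in the naive, saline, siRNC and miR-27b libraries. Lbp, which binds bacterial lipopolysaccharide, was 1.14 higher in the miR-27b than in the siRNC library. The kininogen genes Kng1 and Kng1l1 were 1.23 and 1.40 higher but are close copies of each other, so reads may be split between them. The fibrinogen chains Fga, Fgb and Fgg were 0.88, 0.71 and 0.68 higher, under 2-fold.

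Hamp, which encodes the iron hormone hepcidin and is itself induced by IL-6, was the exception. It stood at 1.25 in naive, 0.75 in saline, 0.00 in siRNC and -4.16 in miR-27b liver, so only the miR-27b liver was low. With a pseudocount of 5 and Hamp placed at 16 normalized reads, the bottom of its class, the difference of -4.16 was -1.83. Of 22 kept genes of hepcidin and iron handling, Hamp was the 1 gene at least 2-fold lower, and 14 lay above 0. The BMP targets Id1 and Smad7, which respond to the signal that also drives Hamp, were at -0.53 and -0.29 (95% interval of Smad7 -0.88 to 0.27), and Bmp6, the ligand, was at 0.90 (95% interval -0.47 to 2.34).

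The kinases, receptors and feedback inhibitors of the IL-6 and STAT3 pathway had 20 kept genes, of which 16 lay above 0, with a median of 0.60, or 0.26 over the 8 genes that passed the stricter filter. At least 2-fold higher were 6, and Cish was the 1 at least 2-fold lower. Bcl3, a nuclear IkB protein induced by STAT3, stood at -0.51, 1.05, -0.36 and 1.98 in the naive, saline, siRNC and miR-27b libraries. Socs3, the feedback inhibitor of the receptor, stood at -2.01, 0.05, -1.15 and 0.70. In both, the miR-27b library was the highest and the saline library the next. Stat3 itself was 1.03 higher, and the kinase Pim1 had 21, 28, 26 and 59 reads (log2 difference 1.25, 95% interval 0.57 to 1.98). Il6 was at 0 in all 4 libraries, which for a table floored at 1 normalized read shows only that it was not detectable at this depth.

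Promoters of 3 genes are printed because they belong to the acute phase and STAT lists, hold the same STAT-type motif and lay on opposite sides of 0: Serpina3n, an acute phase protease inhibitor, at 1.03, Hamp at -4.16 and Cish at -2.74. The motif searched was TTCNNNGAA, which reads the same on both strands, in 300 bases from 250 before to 50 after the start of the gene (RefSeq, build GRCr8). Matches are in capitals. The windows are chr6:129088142-129088441 on the plus strand for Serpina3n, chr1:95300222-95300521 on the minus strand for Hamp and chr8:116850719-116851018 on the plus strand for Cish.
Serpina3n: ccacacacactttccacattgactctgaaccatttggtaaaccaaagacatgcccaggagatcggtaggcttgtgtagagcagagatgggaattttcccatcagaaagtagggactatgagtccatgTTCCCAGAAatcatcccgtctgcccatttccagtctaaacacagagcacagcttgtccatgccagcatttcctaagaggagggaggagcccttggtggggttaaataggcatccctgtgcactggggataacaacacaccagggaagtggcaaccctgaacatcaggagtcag
Hamp: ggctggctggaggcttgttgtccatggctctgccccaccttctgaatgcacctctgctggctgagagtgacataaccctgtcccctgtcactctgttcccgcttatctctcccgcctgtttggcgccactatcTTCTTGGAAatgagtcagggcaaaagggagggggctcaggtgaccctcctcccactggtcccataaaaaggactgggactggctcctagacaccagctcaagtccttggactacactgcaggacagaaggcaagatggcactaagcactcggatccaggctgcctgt
Cish: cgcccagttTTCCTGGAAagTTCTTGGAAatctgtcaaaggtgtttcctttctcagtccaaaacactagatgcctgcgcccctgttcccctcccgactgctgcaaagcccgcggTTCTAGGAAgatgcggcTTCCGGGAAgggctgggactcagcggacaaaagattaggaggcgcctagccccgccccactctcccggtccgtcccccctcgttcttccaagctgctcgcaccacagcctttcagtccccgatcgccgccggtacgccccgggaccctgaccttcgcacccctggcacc
The window of Cish held 4 matches and those of Hamp and Serpina3n 1 each. Among all 33469 promoters in the table, 8.87% held the motif. Of 18 acute phase genes with a promoter in the table, 6 held it (Fga, Fgb, Hamp, Itih4, Serpina3n and Steap4), and of 17 genes of the IL-6 and STAT3 list 1 held it (Cish). A match is a description of letters and not of binding.

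Targets of IL-1, TNF and NF-kB had 17 kept genes, with 15 above 0, a median of 0.36 and 3 at least 2-fold higher. Cxcl1, a neutrophil-attracting chemokine, stood at -1.88, 2.11, -0.93 and 5.76 in the naive, saline, siRNC and miR-27b libraries, the widest difference of any kept gene (6.69). Its baseline was classed at 16 reads or more from the rounding of the values alone, and the difference was 6.02 with a pseudocount of 5. Nfkbiz, an IkB protein that acts as a coactivator in the nucleus, was 1.07 higher (0.96 with the pseudocount). Il1b was under the limit at 0.53 (95% interval 0.04 to 1.03). The NF-kB subunits Rela and Nfkb1 differed by 0.05 and 0.10.

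Complement genes lay above 0 in 24 of 27, but none reached 2-fold, and the median was 0.31. C9, C5 and C3 were 0.59, 0.58 and 0.41 higher, while C7, the 1 member at least 2-fold lower, was at -1.44 with the siRNC library alone high (1.44 against -0.94, -0.08 and 0.00 in naive, saline and miR-27b). Interferon response genes had a median of 0.17 over 29. Irf1 was 1.15 higher and Gbp5 1.03 (95% interval 0.20 to 1.91), or 0.88 and 0.87 with the pseudocount. Cd274, the ligand of PD-1, was the 1 gene at least 2-fold lower (-2.67), with a level that the values left undecided.

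**Figure D2:**
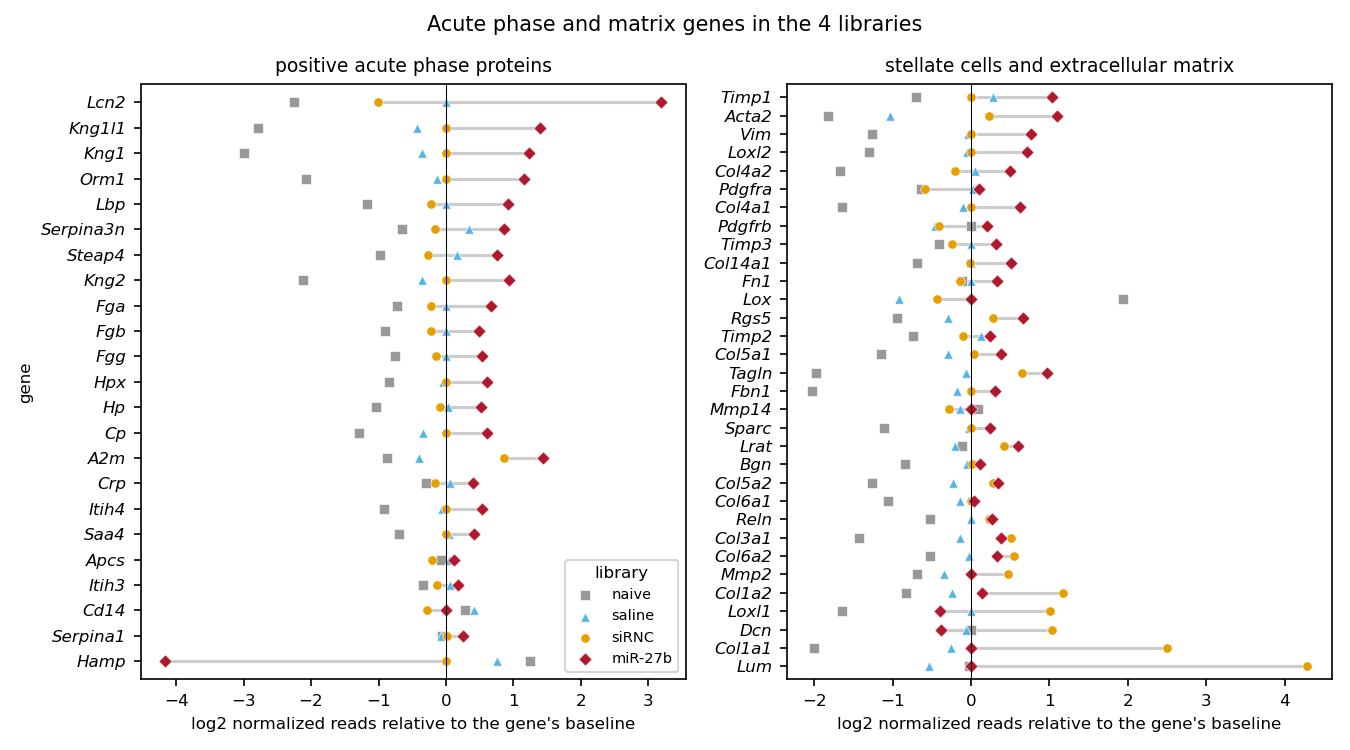
Kept genes of the acute phase list (left) and of the stellate cell and matrix list (right), in log2 normalized reads relative to each gene's baseline, with 1 point per library. The miR-27b library lies rightmost in 21 of 23 acute phase genes, while the wide gaps at the foot of the matrix panel are those in which the siRNC library lies alone to the right.

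Extracellular matrix genes were split. Of 32 kept genes of stellate cells, the matrix-producing pericytes of the liver, and of matrix, 24 lay above 0 and the median was 0.32, while the mean was -0.02, and 5 genes were at least 2-fold lower. Col1a1, the main chain of type I collagen, had 48, 171, 1120 and 188 reads in the naive, saline, siRNC and miR-27b libraries (log2 difference -2.50, 95% interval -2.73 to -2.28). The siRNC library alone was high, and the miR-27b library was near saline. Dcn, Loxl1 and Col1a2 also had the siRNC library highest and were at -1.41, -1.41 (95% interval -2.40 to -0.49) and -1.03. Lum, a collagen-binding proteoglycan, had 4, 3, 82 and 4 reads (log2 difference -4.29, 95% interval -6.19 to -2.87). It passed the filter through the siRNC library alone, so a wide difference follows from its being kept, and the counts of the list hold it.

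Other members lay on the other side. Timp1, an inhibitor of matrix proteases, was at 1.04 (95% interval -0.09 to 2.33, from 10.1 and 19.7 reads, or 0.77 with the pseudocount). Timp1 would not have passed the filter with the miR-27b library at the siRNC level, which favours a difference upward. Acta2, smooth muscle actin and a marker of activated stellate cells, had 12, 22, 51.2 and 89 reads, with the miR-27b library the highest (log2 difference 0.87, 95% interval 0.36 to 1.40). The basement membrane chains Col4a1 and Col4a2 were 0.63 and 0.70 higher. Markers of mesenchymal stromal and adipose cells had 11 kept genes of 20 and a median of 0.13; Fabp4, a fatty acid carrier of adipocytes, was 1.13 higher (0.98 with the pseudocount) and Car3 was at -0.88. Thy1, a surface marker of such cells, had 0, 5, 5 and 1 reads and was not kept. Tgfb1 was 0.47 higher, and of 23 kept TGF beta ligands, receptors and SMADs only Tgfb2 reached 2-fold, at 1.08 (95% interval 0.02 to 2.21, or 0.84 with the pseudocount). Tgfb2 too would not have passed the filter with the miR-27b library at the siRNC level.

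Markers of macrophages and Kupffer cells lay above 0 in 24 of 25, by small amounts: the median was 0.33 and the highest, Hmox1, the haem-degrading oxygenase, was at 0.85. Marco and Clec4f, both Kupffer cell receptors, were 0.65 and 0.55 higher. MHC class II genes were above 0 in all 10 kept members, with a median of 0.63, and RT1-Bb had 128, 184, 123 and 278 reads (log2 difference 1.25, 95% interval 0.94 to 1.57). Endothelial markers lay above 0 in 19 of 20, with a median of 0.31, and Vwf, the clotting carrier of endothelium, was at 1.23 (95% interval 0.92 to 1.53). These markers were higher beside the acute phase, NF-kB and matrix genes, and their part in those results was not tested. T, NK and B cell and neutrophil markers were near the limit of detection, with 6, 1 and 3 kept genes. Of these, 5 of the 6 T and NK cell genes lay above 0, with a median of 0.55. Nkg7 and Cd4 were 0.13 and 0.23 higher, and Il2rb was at -0.37. Nkg7 had naive and saline values tied at -0.92, the lowest, as for libraries at the floor. Its reads were then few, and it was kept by its class alone, but the count and median hold it. Cd22 of B cells was at -0.04 and Csf3r of neutrophils at 0.05. The widest, Lck, a kinase of T cells, was 2.18 higher. Prf1, the perforin of cytotoxic cells, was 1.10 higher (95% interval 0.16 to 2.16, or 0.88 with the pseudocount). Prf1 would not have passed the filter with the miR-27b library at the siRNC level, which favours a difference upward. The neutrophil alarmin S100a9 was 1.23 higher, at -3.87, -1.08, 0.09 and 1.32 in the naive, saline, siRNC and miR-27b libraries.

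Mitosis genes gave the highest median of all lists, 1.38 over 10 kept genes, of which 9 lay above 0 and 7 were at least 2-fold higher. Of 28 genes on that list 23 were detected, so most were too low to be kept. Cenpf, a kinetochore protein, had 24, 3, 3 and 22 reads in the naive, saline, siRNC and miR-27b libraries (log2 difference 2.95, 95% interval 1.21 to 5.33, or 1.81 with the pseudocount). Top2a, the topoisomerase of dividing cells, had 106, 14, 16 and 37.8 reads (log2 difference 1.31, 95% interval 0.44 to 2.26). The naive liver was the highest for both genes, and the miR-27b liver lay between it and the other two. Mki67, the proliferation marker, stood at 0.94, -0.60, -1.31 and 0.13, a difference of 1.44 (0.97 with the pseudocount). The list median was 1.03 with a pseudocount of 5. Cenpf and the list member Ccna2 would not have passed the filter with the miR-27b library at the siRNC level. Being kept thus favours a wide difference upward in these genes, and the counts and median of the list hold them. Ube2c, also among the 7, had saline and siRNC values tied at -1.33, the lowest, as for libraries at the floor of 1 normalized read. Its difference of 2.06 then rests on few reads. It was kept by its class alone, and the counts and median hold it too.

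DNA replication genes, which act before mitosis, had a median of 0.34 over 14 kept genes and none at 2-fold in either direction. Tk1 was 0.91 and Prim1 0.90 higher (95% interval of Prim1 0.35 to 1.47). Among regulators of G1, Cdkn1a, the p21 inhibitor, stood at 0.64, 0.00, -2.30 and 0.49 in the naive, saline, siRNC and miR-27b libraries, so its difference of 2.78 (1.73 with the pseudocount) came with a low siRNC library. Gadd45b, a stress-induced growth arrest gene, was low in the siRNC library in the same way (0.24, 0.00, -1.58 and 0.43; difference 2.01). Ccnd1, the G1 cyclin of regenerating hepatocytes, was at -0.49, Ccnd2 at -1.05 (95% interval -2.16 to -0.01) and Rb1 at -1.06, and with the pseudocount both were under 2-fold (-0.82 and -0.76). Among immediate early genes Egr1 stood at 0.00, -1.71, -1.42 and 1.47, a difference of 2.88, while Jun was at -0.91 and Atf3 at -1.01 (95% interval -2.33 to 0.21, or -0.73 with the pseudocount). Atf3 would not have passed the filter with the siRNC library at the miR-27b level, which favours a difference downward. Hgf, the hepatocyte growth factor, differed by 0.21, and Afp, the fetal albumin relative, by 0.34.

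**Figure D3:**
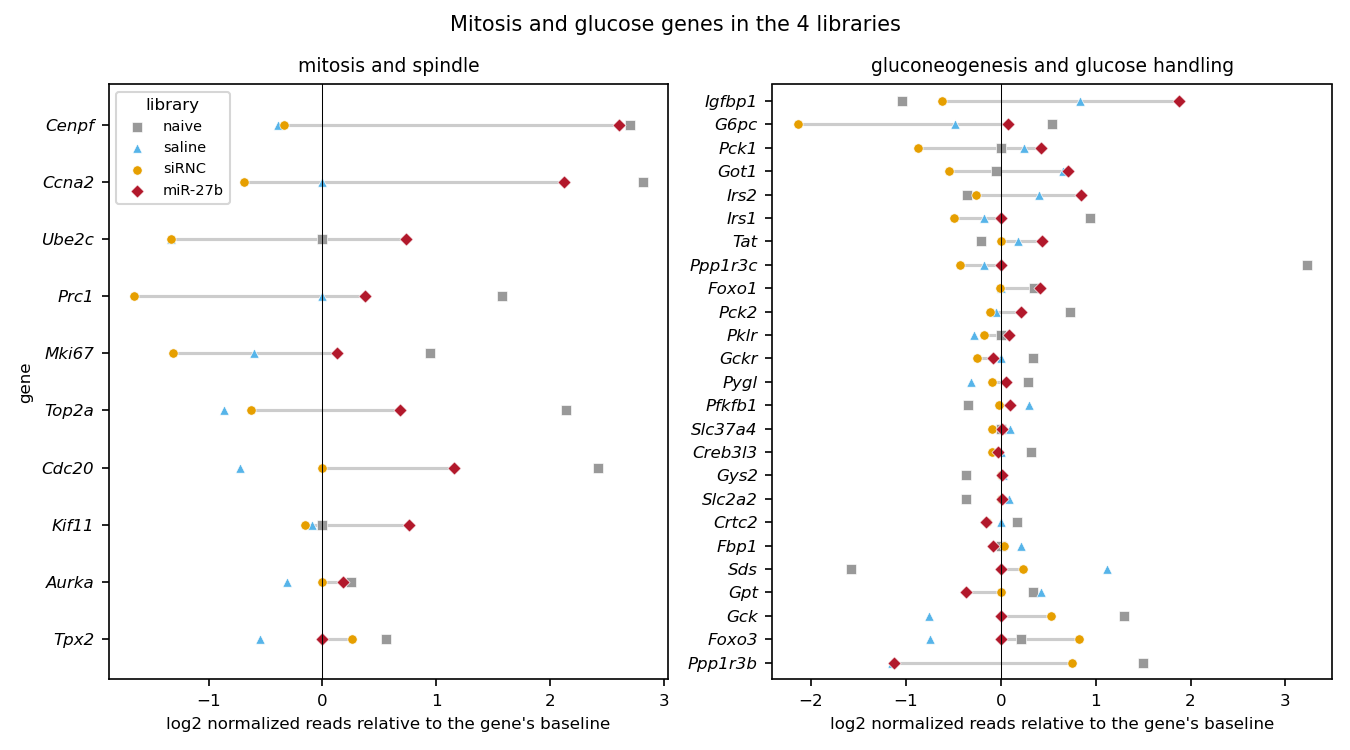
Kept genes of the mitosis list (left) and of the glucose list (right), in log2 normalized reads relative to each gene's baseline, with 1 point per library. The naive library is the highest for Cenpf, Top2a and Mki67, and the siRNC library lies at -2.14 for G6pc.

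Several glucose and fasting genes had more reads in the miR-27b liver, chiefly where the siRNC library was low. G6pc, glucose-6-phosphatase, stood at 0.54, -0.48, -2.14 and 0.07 in the naive, saline, siRNC and miR-27b libraries, a difference of 2.21. Pck1, the first committed enzyme of gluconeogenesis, stood at 0.00, 0.25, -0.87 and 0.43, a difference of 1.30 (0.95 with the pseudocount). In both, the siRNC library was the lowest of the 4. Over the 25 kept genes of the list, 18 lay above 0 and the median was 0.14. At least 2-fold higher were 5, against 3.07% of all kept genes, among them Irs2 (1.11, 95% interval 0.50 to 1.75). Ppp1r3b, which targets phosphatase to glycogen, was the 1 gene at least 2-fold lower, at -1.88.

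Among genes of fatty acid oxidation and ketogenesis, the median over 27 genes was 0.11, and 3 were at least 2-fold higher. Angptl4, a lipase inhibitor of fasting, stood at 0.41, -0.78, -2.70 and 0.00 (difference 2.70, or 1.49 with the pseudocount). Fgf21, the fasting hormone of liver, had 76.9, 14.1, 10.8 and 31.9 reads (difference 1.64, 95% interval 0.59 to 2.75). Pdk4, the inhibitory kinase of pyruvate dehydrogenase, was 1.32 higher (0.94 with the pseudocount), while Hadha, of the mitochondrial beta-oxidation complex, was at -0.01. Ppargc1a, the coactivator PGC-1 alpha of mitochondrial and fasting genes, stood at -1.10, 0.73, 0.00 and 1.85 with the miR-27b library the highest, a difference of 1.85. Of 21 kept genes of PGC-1 and mitochondrial biogenesis, 10 lay above 0 and the median was -0.03, and Polg2 was the other gene at least 2-fold higher (1.36). In lipid storage, Plin2 and Pnpla2, a coat protein and a lipase of lipid droplets, were each 1.34 higher, and the lipogenic regulators Srebf1 and Mid1ip1 were at -0.72 and -1.36. The list of fatty acid and triglyceride synthesis, which holds these genes, showed no shared direction. Of its 26 kept genes 14 lay above 0 and 12 below, with a median of 0.02. Scd1 and Insig2 of that list were 0.74 and 0.69 higher.

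Cholesterol synthesis genes were lower, with 20 of 25 below 0, a median of -0.41 and 4 at least 2-fold lower. The siRNC library was the highest of the 4 in 19 of the 25, and the miR-27b library the lowest in 0, against 21.3% and 26.1% of all kept genes. Msmo1, a sterol methyl oxidase, stood at 0.00, -0.31, 1.53 and -0.08 in the naive, saline, siRNC and miR-27b libraries, a difference of -1.61. The siRNC library alone was high, and the miR-27b library was level with naive. Hmgcs1 and Sqle were at -1.50 and -1.09 (Sqle at -0.90 with the pseudocount), and Mvd had 63, 58, 144 and 73.8 reads (difference -0.89, 95% interval -1.31 to -0.47). Insig1, which retains the SREBP regulators of these genes, was on the other side, at 0.68. Over the list, the median difference from saline was 0.31 in the miR-27b liver and 0.92 in the siRNC liver, and both share that saline library.

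The circadian clock runs on activators, ARNTL with CLOCK or NPAS2, that drive their own repressors and output genes, and in liver it sets daily rhythms of metabolism. The activators and the outputs stood on opposite sides. Arntl stood at 1.07, 0.00, -2.13 and 0.15 in the naive, saline, siRNC and miR-27b libraries, a difference of 2.29 (1.40 with the pseudocount). Npas2 had 195, 86.4, 28 and 110 reads (difference 2.05, 95% interval 1.44 to 2.70). Nfil3, a repressor that peaks with the activators, stood at 0.00, 0.21, -1.30 and 0.40 (difference 1.70), and Clock was 0.91 higher. In all 4 the siRNC library was the lowest.

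Dbp, the PAR bZIP output factor, stood at -5.13, 0.00, 1.59 and -1.59, a difference of -3.18. Per3, a period repressor, stood at -3.96, 0.03, 1.57 and -1.86, a difference of -3.43. For both, naive was the lowest and siRNC the highest, with the miR-27b library below saline. Usp2 was at -2.03, and Wee1, a clock-controlled mitotic kinase, was at -2.53 (95% interval -4.09 to -1.29, from 37 and 6.1 reads). The period and cryptochrome repressors Per1, Cry1 and Cry2 were at -0.68, -0.93 (95% interval -1.60 to -0.28) and -0.81, and the REV-ERB receptors Nr1d1 and Nr1d2 at -0.39 and -0.66. The median over 19 kept genes was -0.65, but 0.28 over the 5 that passed the stricter filter. Of the 19, 13 lay below 0, 4 were at least 2-fold lower and 3 at least 2-fold higher. Collection times are not given, so time of day and treatment cannot be told apart.

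**Figure D4:**
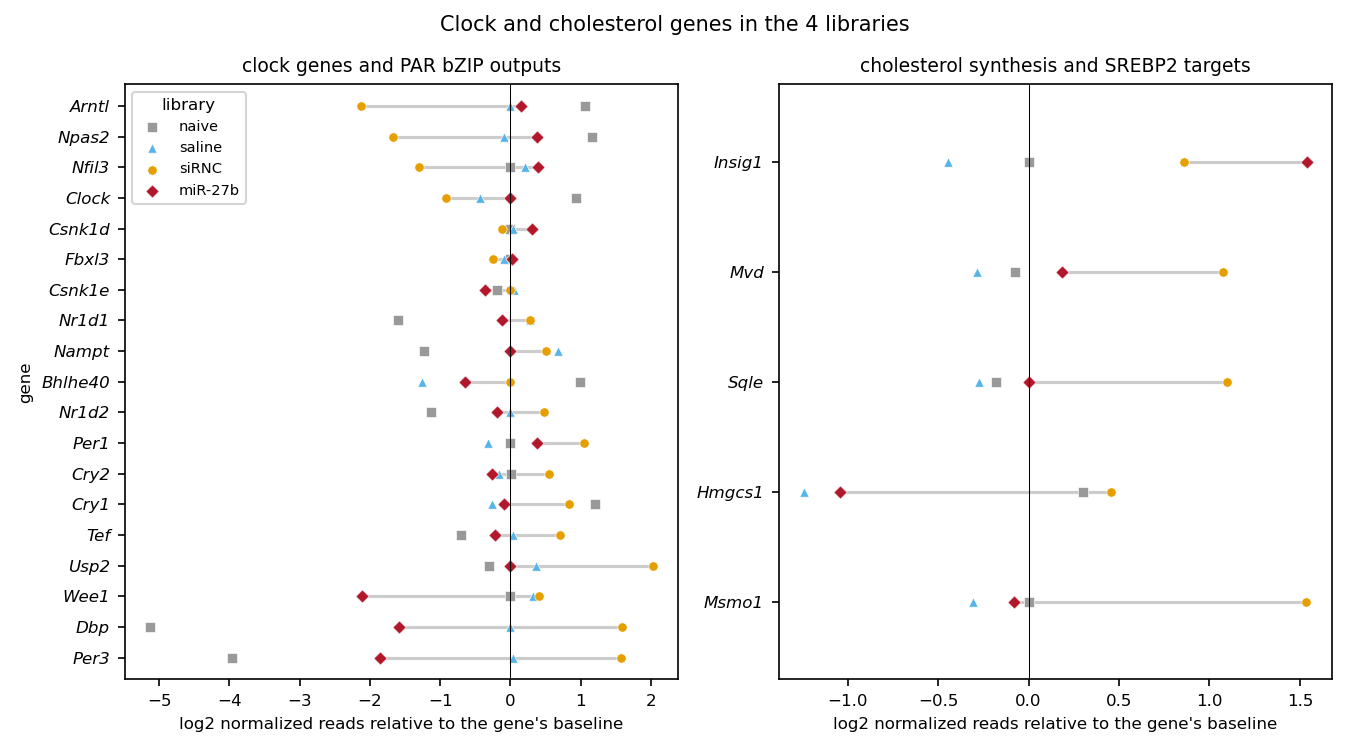
Kept clock genes (left) and the cholesterol synthesis genes named in the text (right), in log2 normalized reads relative to each gene's baseline, with 1 point per library. The siRNC library lies at one end for Arntl and Npas2 (lowest), for Msmo1 (highest) and for Dbp and Per3 (highest).

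Growth hormone and STAT5 genes were split around a median of 0.03 over 20. Beside Cish, the feedback inhibitor Socs2 was lower, at -1.57, with -1.19 in naive, 0.18 in saline, 0.00 in siRNC and -1.57 in the miR-27b library, so that the naive and miR-27b libraries were both low (-1.02 with the pseudocount). The STAT5-dependent Cyp2c11 and Igfals were at -0.91 and -0.95. Stat5b was 0.92 higher. Drug-metabolising cytochromes P450 had a median of 0.16 over 28, with Cyp2b2 and Cyp2c7 at 1.08 and 1.04, and Ahr, the aryl hydrocarbon receptor, at 1.19 (0.89 with the pseudocount). Bile acid genes had a median of -0.04 over 21, with the canalicular pump Abcc2 at -1.07 and Cyp7a1, which starts the classic route from cholesterol to bile acids, at -0.66. Heat shock proteins were below 0 in 16 of 19, none by 2-fold, with Dnajb1 lowest at -0.97; the siRNC library was the highest of the 4 in 14 of the 19, against 21.3% of all kept genes.

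Genes reported as miR-27b targets in other systems showed no shared direction. Of 26 kept genes, 13 lay above and 13 below 0, with a median of -0.01. Upward 3 reached 2-fold and downward 1, against 3.07% and 2.48% of all kept genes. Ppargc1a, Pdk4 and Fabp4 were the higher ones. Tgfbr1 and Foxo1 were at -0.34 and 0.42. The whole liver holds mainly host cells, and the donor cells' own share of these messages was not measured.

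**Figure D5:**
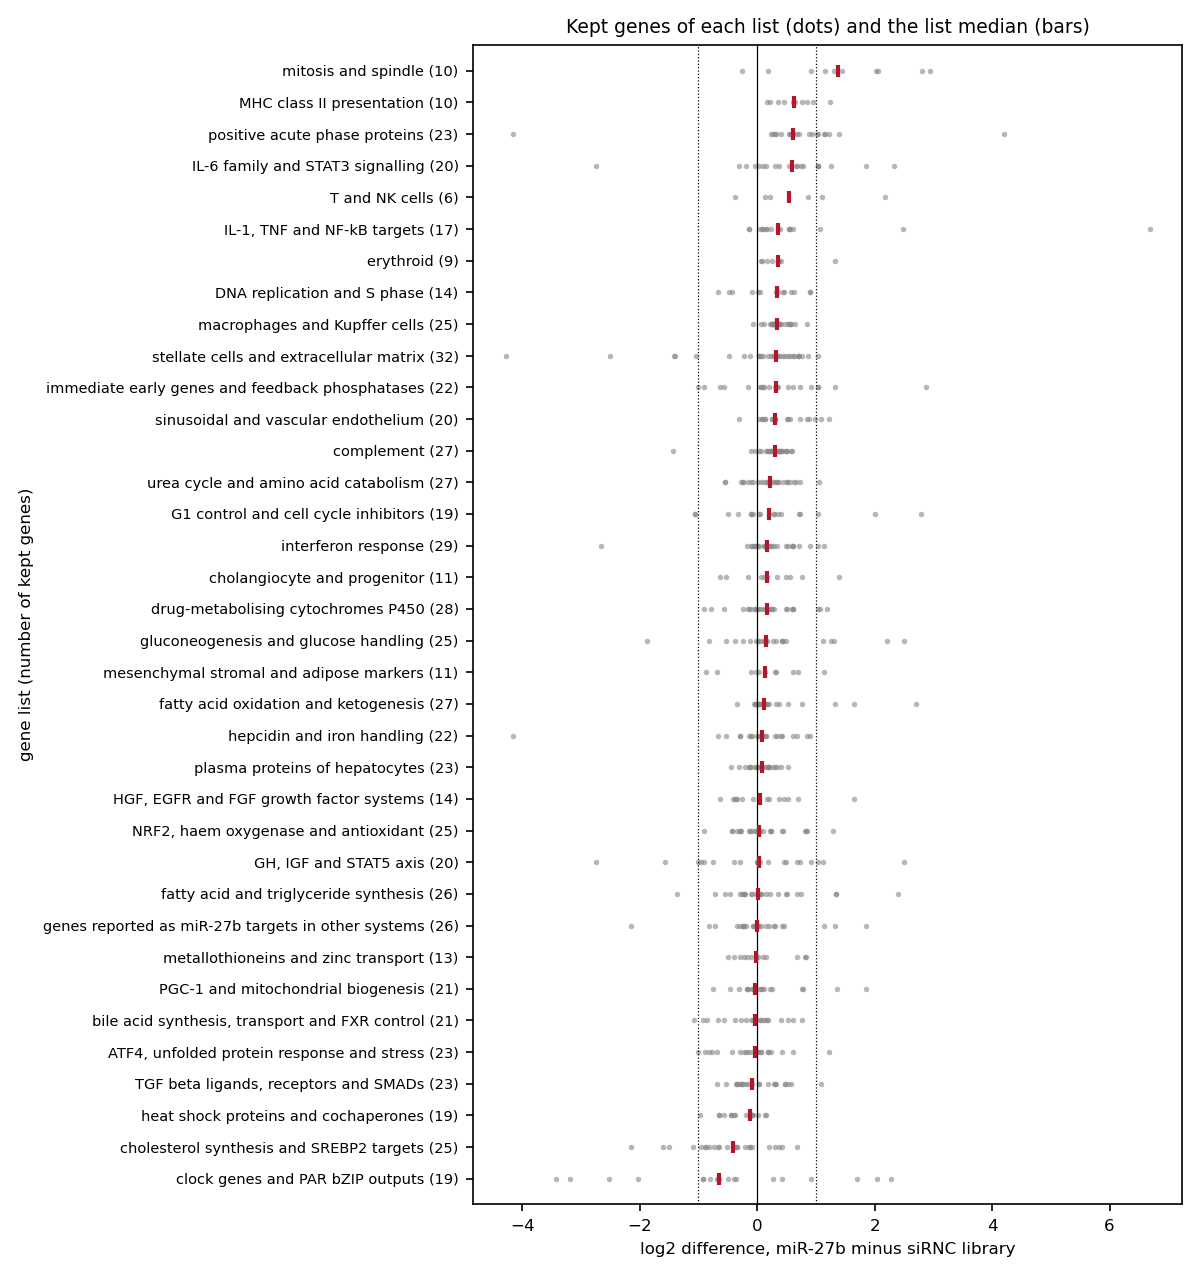
Log2 difference, miR-27b minus siRNC library, of each kept gene (dots) in the 36 gene lists with at least 5 kept genes (numbers in brackets), with the list median as a bar and dotted lines at 2-fold. Medians run from -0.65 for the clock to 1.38 for mitosis, and most lists have their median within 0.5 of 0.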

How the data were processed

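Poly(A) RNA of rat liver was made into TruSeq libraries and read on a MiSeq, per the labels' protocols. The authors deposited 1 table of log2 values with 1 column per library. DESeq (no version) and the build rn5 are named in the submitters' processing notes; the aligner and counter were not given in the sources used here. Deposited log2 values behave as size-factor-scaled reads floored at 1, minus a baseline per gene.

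The log2 difference is the miR-27b minus the siRNC value, with no pseudocount. Reads were recovered for 3893 genes as whole multiples of 1/101 of a read (up to 500 reads in the lowest library, posterior of at least 0.9), and 192 recoveries that the stored rounding contradicts were discarded. On simulated data, 90.6% of recovered genes were right, and 89.1% of those with a recovered mean of 10 or more. Simulated reads were drawn with the steps of 1/101 and the share of whole reads that the recovery assumes. These shares may therefore not hold for the real values. An error by a common factor in all 4 libraries leaves the difference as it is. Such an error still makes the reads given and the width of the interval wrong. Other genes were classed from the binary rounding of their values as at least 16 or at least 256 normalized reads. Kept were genes with a recovered mean of at least 10, or in the class of at least 16; the stricter set of 3070 genes needed a mean of 50 or more, or the higher class. Of recovered genes with a baseline under 16, 15.4% would have been classed at 16 or more, and of those recovered from 16 to 256, 8.57% at 256 or more. The class of at least 256 found 19% of recovered genes at that level, so level alone is read loosely. Genes with libraries tied at the lowest value, as at the floor, could be classed too high. Gal3st4, Ube2c and Nkg7 are examples, and the counts hold such genes.

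The way of recovering reads and of reading the class was not fixed beforehand. It was revised several times with the counts of 2-fold genes in view, and single genes that dropped out or looked too high prompted some revisions. A recovery that weighed the rounding together with the reads was tried and dropped, because it lost genes whose reads were plainly whole. Among 3 class rules the final choice was made on agreement with recovered levels at 16 reads, where the rule used and that from all libraries were right in 87% on average of both sides and the likelihood rule in 84.1%. The rule from all libraries, which did better in the test on simulated data, was not used because it acts as a minimum over libraries and removes genes low in 1 library. The other rules are among the alternatives.

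Members, gene lists and rules were chosen with earlier results of these data known. Named were the 12 highest and 12 lowest genes of the stricter set (no LOC or RGD symbols), up to 5 members of each list on either side of 0, and 9 fixed genes; some are left out for length, some are not reported here, and Thy1 and Hadha, and other list members outside the rule, were named after their values were seen. Intervals are exact conditional binomial (Clopper-Pearson, 95%) on rounded reads; PCR copies are not independent molecules. Library totals were not used. Python 3.11.15, numpy 2.4.6, scipy 1.17.1 and numba 0.67.0 were used.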

Additional observations from a re-analysis of the deposited data

How the results depend on the processing

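The counts of genes at least 2-fold apart depend on how low levels are treated. Without a filter 919 genes were higher and 573 lower, with the stricter filter 55 and 33, with a pseudocount of 5 it was 177 and 119, and with recovered genes alone 115 and 77, against 296 and 239. Centring on the median difference gave 296 and 241. The 2 other ways of reading the level class, added after seeing the data, gave 253 and 191 (from all libraries) and 329 and 261 (a likelihood over all libraries). Of 36 list medians, 10 changed sign under at least 1 alternative, of which 8 lay within 0.09 of 0 to begin with. The other two were larger: the clock list was at 0.28 over the 5 genes of the stricter filter, and the matrix list was at -0.025 by its mean. The IL-6 and STAT3 median was 0.26 under the stricter filter, the NF-kB mean 0.81, and the mitosis median 1.66 without a filter and 1.03 with the pseudocount. Of 318 named genes, 93 moved with the pseudocount, 23 named genes went from over to under 2-fold, and none changed sign. The cause of these shifts was not tested. No paired analysis was possible because each group holds 1 library. Depth limits single genes: with 16 reads on both sides, the counting SD of a log2 difference is 0.51.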
